A study of Homo sapiens with 5 samples.

Results

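The 10 genes of bone morphogenetic protein (BMP) signalling described here in H9, a human embryonic stem cell line, were the ligands BMP2, BMP4 and BMP7, the pseudoreceptor BAMBI, the transcriptional regulators ID1, ID2, ID3 and ID4, and the homeobox factors MSX1 and MSX2. They were taken by symbol, 10 of the 26506 genes in the deposited table, and all 10 reached 1 TPM (a transcript level scaled to gene length and library total) in at least 1 library. Poly(A) RNA was sequenced in 5 libraries, 1 for each group. Wild-type (WT) cultures came from basal medium, 2iLAF or 5iLAF, and B3GALT5-/- cultures (called knockout below, and B3GALT5-KO in the plots) from basal medium or 2iLAF; B3GALT5 is a galactosyltransferase of globo-series glycosphingolipids. Media of the iLAF kind hold several kinase inhibitors, the cytokine LIF, activin A and FGF2, and are meant to move cells from the primed to the naive state. The labels call both basal libraries primed, WT 5iLAF and knockout 2iLAF naive, and WT 2iLAF primed-naive. How many knockout clones were used is not given in the sources used here. With 1 library per group there was no test and no error between cultures, so each value describes 1 library. Where values are paired, WT comes before knockout.

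BMP ligands bind pairs of type I and type II serine/threonine kinase receptors, which phosphorylate SMAD1, SMAD5 and SMAD9. These SMADs enter the nucleus with SMAD4 and activate target genes, among which the ID and MSX genes are widely used readouts. ID proteins lack a DNA-binding region and hold E proteins away from DNA, which delays differentiation. In human pluripotent cells BMP signalling is known for inducing mesoderm, amnion and trophoblast fates, and its inhibition favours neural fate.

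The libraries were checked first against their labelled cell type. All 8 pluripotent stem cell markers were above 1 TPM in every library, with summed levels between 2801 and 6313 TPM, POU5F1 (the pluripotency factor OCT4) between 1099 and 3350.3 TPM, and NANOG lowest in WT 2iLAF, at 16.5 TPM. Other cell types' markers were not evenly spread. The 8 mesoderm and primitive streak markers summed to between 3.08 and 6.77 TPM in the basal and WT 2iLAF libraries, against 552 in WT 5iLAF and 505 in knockout 2iLAF. The 6 endoderm markers summed to between 3.18 and 6.60 TPM in the former libraries, against 1968 and 1015 in the latter. The 7 neuroectoderm markers stood at 729 TPM in WT 2iLAF and at most 43.5 elsewhere, with PAX6 and SOX1 below 1 TPM in every library. The 10 fibroblast and feeder cell markers summed to 2062 TPM in WT 5iLAF and 6071 in knockout 2iLAF, against at most 845 elsewhere. THY1, which pluripotent cells also express, made up most of the basal sums (716 and 754 TPM) and ran the other way, at 14.3 TPM in WT 5iLAF and 37.7 in knockout 2iLAF, while DCN and FAP were listed at 0 in the basal and WT 2iLAF libraries. The 9 amnion and trophoblast markers summed to between 15.5 and 55.7 TPM in 4 libraries and to 146 in knockout 2iLAF, of which 135 was HAND1, while CGA was listed at 0 in all 5. Granulocyte markers (8 of 8) summed to 1122 TPM in knockout 2iLAF and at most 1.90 elsewhere. Erythroid markers summed to 229 TPM in WT basal and 222 in knockout 2iLAF, against at most 12.5 in the others. B3GALT5 itself was present in every library, between 1.17 and 9.31 TPM, so its transcript did not check the knockout.

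All 3 ligands were lowest in the basal libraries, intermediate in WT 2iLAF and highest in WT 5iLAF and knockout 2iLAF. BMP4, which induces mesoderm and extraembryonic fates, was at 2.67 and 3.46 TPM in the basal WT and knockout libraries, 20.3 and 84.3 in their 2iLAF counterparts, and 74.5 in WT 5iLAF. BMP2, its closest relative, was at 1.07, 2.92 and 34.5 TPM in WT cells in basal medium, 2iLAF and 5iLAF, and 1.24 and 26.0 in knockout cells in basal medium and 2iLAF. BMP7, which can pair with either of them in heterodimers, was at 10.2 TPM (WT) and 11.1 (knockout) in basal medium, 26.9 and 41.1 in 2iLAF, and 66.1 in WT 5iLAF. As a fold, the gap between WT 2iLAF and the pair of high libraries was widest for BMP2 and narrowest for BMP7, whereas in TPM it was widest for BMP4. Because these are whole cultures, a change in the share of cells that make a transcript and a change in its amount per cell cannot be told apart.

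The makeup of the ligand pool also differed. The summed TPM of the 3 ligands was 13.9 (WT) and 15.8 (knockout) in basal medium, 50.1 and 151 in 2iLAF, and 175 in WT 5iLAF. BMP7 made up 73.2% (WT) and 70.2% (knockout) of that sum in basal medium, 53.7% and 27.1% in 2iLAF, and 37.7% in WT 5iLAF. BMP4 held the largest share in WT 5iLAF and knockout 2iLAF, at 42.5% and 55.7%. BMP2 held 5.83% in WT 2iLAF, less than in either basal library (7.68% and 7.86%), and 19.7% and 17.2% in WT 5iLAF and knockout 2iLAF.

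**Figure D1:**
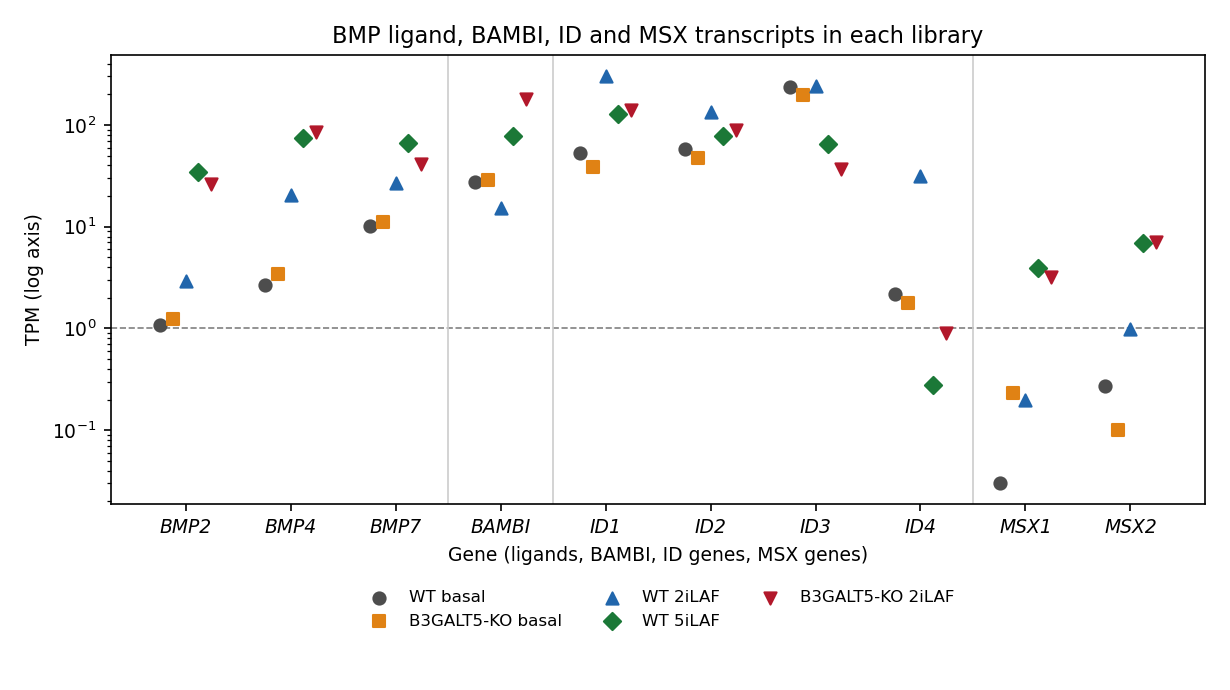
TPM (log axis) of each of the 10 genes, 1 point per library, with the dashed line at 1 TPM; there are no replicates and no error bars. Ligand and MSX points of WT 5iLAF and knockout 2iLAF lie above the other libraries, ID4 stands at 31.2 TPM in WT 2iLAF, and ID3 is lowest in knockout 2iLAF at 36.9 TPM.

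BAMBI did not follow the ligands through WT 2iLAF. It encodes a receptor-like membrane protein without a kinase domain that dampens BMP and activin signalling, and it is itself raised by BMP and WNT signalling in many cells. Its level was 27.2 and 28.6 TPM in the basal WT and knockout libraries, 15.1 and 180.4 in their 2iLAF counterparts, and 77.1 in WT 5iLAF. WT 2iLAF was thus the lowest library, whereas all 3 ligands were above basal there. Knockout 2iLAF stood 2.34-fold above WT 5iLAF in TPM, the widest gap between these libraries of any of the 10 genes except ID4, which was below 1 TPM in both. The 250 bases before the RefSeq start of BAMBI are shown because they held more matches to SMAD-type motifs than those of any other of the genes that had a promoter in the table. They are chr10:28677271-28677520, plus strand, in GRCh38.p14, with GGCGCC and CAGAC (or GTCTG, its reverse complement) in capitals.
BAMBI: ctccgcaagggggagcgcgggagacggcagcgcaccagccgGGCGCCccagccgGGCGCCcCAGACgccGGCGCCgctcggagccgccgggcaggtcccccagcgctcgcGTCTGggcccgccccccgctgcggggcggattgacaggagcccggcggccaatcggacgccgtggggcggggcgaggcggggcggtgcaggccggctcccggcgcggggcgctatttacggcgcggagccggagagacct
GGCGCC occurred 3 times and CAGAC 2 times, both strands searched. Of all 35116 RefSeq promoters cut to the same length, 16.4% held GGCGCC and 38.0% held CAGAC. These shares were not matched for G and C content, which was 81.2% in the BAMBI window against a median of 58.0% over all windows. RefSeq promoters were matched for 8 of the 10 genes, all but BMP2 and BMP7, and BMP4 had 3 starts. GGCGCC was found in 1 of the 3 BMP4 windows and in none of the ID or MSX windows, and CAGAC in those of ID3, ID4 and 2 of the 3 of BMP4. A match describes letters and does not show that a SMAD binds there.

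The 4 ID genes split into unlike patterns. ID1 was at 52.8, 306 and 128 TPM in WT cells in basal medium, 2iLAF and 5iLAF, and 38.6 and 139 in knockout cells in basal medium and 2iLAF. ID2 was at 58.7 TPM (WT) and 47.4 (knockout) in basal medium, 133 and 89.7 in 2iLAF, and 78.2 in WT 5iLAF. The order of the 5 libraries was the same for ID1 and ID2, with WT 2iLAF highest, over a range of 7.91-fold for ID1 and 2.80-fold for ID2. ID3 ran another way, at 237.7 and 199 TPM in the basal WT and knockout libraries, 240.4 and 36.9 in their 2iLAF counterparts, and 64.7 in WT 5iLAF. WT basal and WT 2iLAF were near level for ID3, and the lowest values fell in the libraries with the most BMP ligand. ID4, which in the embryo is known mainly from the nervous system, was at 2.17, 31.2 and 0.28 TPM in WT cells in basal medium, 2iLAF and 5iLAF, and 1.78 and 0.90 in knockout cells in basal medium and 2iLAF. Its WT 2iLAF value was 14.4-fold that of the next library. The neuroectoderm markers were also highest in WT 2iLAF (SIX3, LHX5, OTX2, FEZF1 and SOX21 above 20 TPM there), and their part in the ID4 value was not tested.

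The leading ID transcript differed between media. Summed over the 4 genes, ID transcripts stood at 351 TPM (WT) and 286 (knockout) in basal medium, 709.8 and 266 in 2iLAF, and 272 in WT 5iLAF. The sum in WT 5iLAF and knockout 2iLAF was no higher than in either basal library, although these libraries had the largest ligand sums. ID3 made up 67.7% (WT) and 69.4% (knockout) of the ID sum in basal medium, 33.9% and 13.8% in 2iLAF, and 23.8% in WT 5iLAF. ID1 made up 15.0% and 13.5% in basal medium, 43.1% and 52.2% in 2iLAF, and 47.3% in WT 5iLAF. ID3 was thus 4.50 times ID1 in WT basal, and ID1 was 3.77 times ID3 in knockout 2iLAF. The E proteins TCF3, TCF4 and TCF12, which ID proteins bind, spanned a narrower range. TCF3, the most abundant of them, was at 137 and 129 TPM in the basal WT and knockout libraries, 169 and 83.8 in their 2iLAF counterparts, and 103 in WT 5iLAF. The ratio of summed ID to summed E-protein TPM was 1.55 (WT) and 1.22 (knockout) in basal medium, 3.15 and 1.77 in 2iLAF, and 1.55 in WT 5iLAF.

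**Figure D2:**
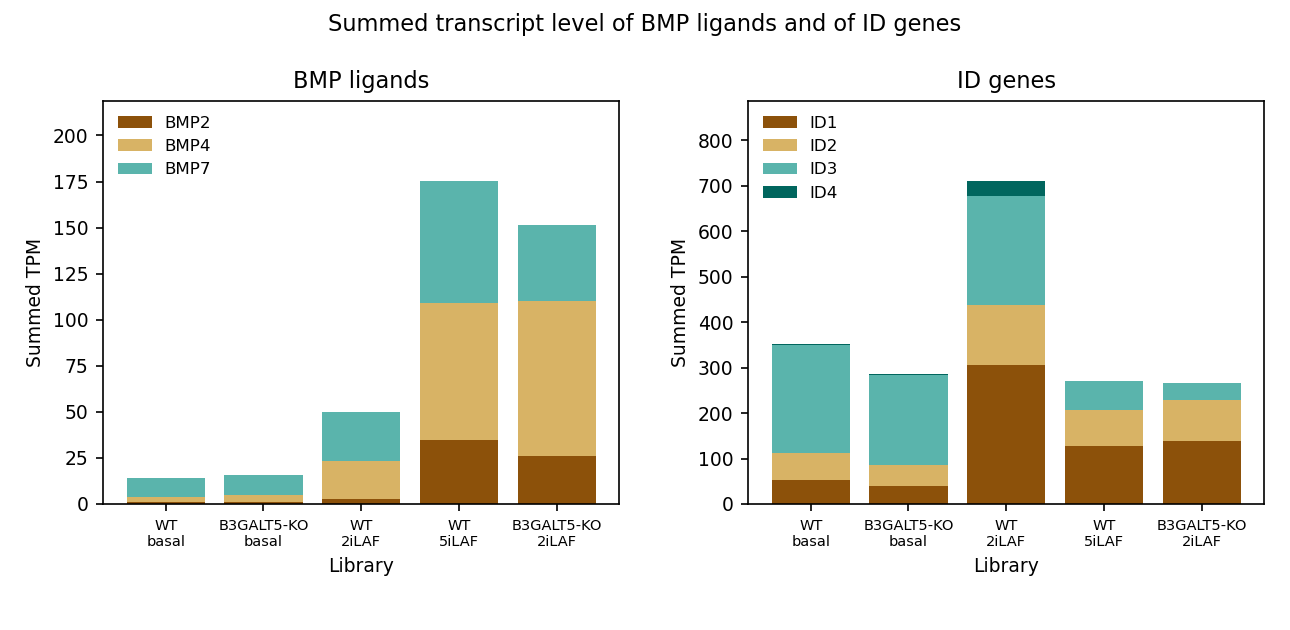
Stacked bars of TPM for BMP2, BMP4 and BMP7 (left) and for ID1 to ID4 (right) in each library, both axes starting at 0. The ligand sum goes from 13.9 TPM in WT basal to 175 in WT 5iLAF, whereas the ID sum is highest in WT 2iLAF at 709.8 TPM.

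Promoter windows are shown for ID1, ID2 and ID4, which stood highest in WT 2iLAF by 2.20-fold, 1.48-fold and 14.4-fold over the next library. ID3 was also highest there, but by only 1.01-fold, and its window is not shown. They cover the 250 bases before the RefSeq start in GRCh38.p14, ID1 at chr20:31605039-31605288, plus strand, ID2 at chr2:8681806-8682055, plus strand, and ID4 at chr6:19837120-19837369, plus strand. Capitals mark TATAAA, the core of a classical promoter element near the start site, and CAGAC, each on either strand.
ID1: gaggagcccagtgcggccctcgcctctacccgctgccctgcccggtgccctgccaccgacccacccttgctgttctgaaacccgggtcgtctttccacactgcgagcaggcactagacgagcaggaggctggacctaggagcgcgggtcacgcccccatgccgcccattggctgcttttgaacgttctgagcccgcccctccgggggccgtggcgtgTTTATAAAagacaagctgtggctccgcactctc
ID2: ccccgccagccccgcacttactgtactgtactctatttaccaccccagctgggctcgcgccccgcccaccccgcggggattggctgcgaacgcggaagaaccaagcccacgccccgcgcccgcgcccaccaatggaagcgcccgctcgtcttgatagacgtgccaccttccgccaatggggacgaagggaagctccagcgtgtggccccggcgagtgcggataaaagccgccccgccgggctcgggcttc
ID4: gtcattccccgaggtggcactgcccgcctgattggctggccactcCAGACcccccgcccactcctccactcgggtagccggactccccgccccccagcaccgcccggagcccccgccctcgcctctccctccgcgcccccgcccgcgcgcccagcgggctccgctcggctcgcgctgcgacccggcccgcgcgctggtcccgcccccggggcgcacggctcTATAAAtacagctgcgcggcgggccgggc
TATAAA began 31 bases before the start in ID1, where a match on the other strand overlaps it, and 29 bases before it in ID4. It was not in the windows of ID2, ID3, BAMBI, MSX1, MSX2 or BMP4, and 10.7% of all 35116 promoter windows held it. CAGAC occurred 1 time in ID4 and in neither ID1 nor ID2. The windows were rich in G and C, at 66.0% in ID1, 69.2% in ID2, 78.8% in ID4 and 81.2% in BAMBI, against a median of 58.0% over all windows. Elements farther upstream were not searched.

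MSX1 and MSX2, repressor homeobox factors of mesenchyme and neural crest that respond to BMP, were near 0 outside the high-ligand libraries. MSX2 was at 0.27, 0.98 and 6.87 TPM in WT cells in basal medium, 2iLAF and 5iLAF, and 0.10 and 7.0 in knockout cells in basal medium and 2iLAF. MSX1 was at 0.03 TPM (WT) and 0.23 (knockout) in basal medium, 0.20 and 3.18 in 2iLAF, and 3.91 in WT 5iLAF. Both reached 1 TPM in WT 5iLAF and knockout 2iLAF and in no other library. No fold is given against values this small.

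Ratios between libraries were computed as log2((TPM + 1)/(TPM + 1)), which understates changes of low genes, and the size rule called a gene higher or lower from 1 upwards in size. In knockout basal against WT basal 0 of the 10 genes passed that rule, where 1.76% of the 15761 tested genes did (0.704% higher and 1.05% lower). A count of 0 among 10 genes is not far from that share. The ratios of knockout basal to WT basal lay between -0.44 (ID1) and 0.28 (BMP4), with a median of -0.06, equal to the -0.06 of all tested genes. The ligands and BAMBI had positive ratios and the 4 ID genes negative ones, all below the size rule. Erythroid markers summed to 229 TPM in WT basal and 10.6 in knockout basal, and their part in these small ratios was not tested.

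In WT 2iLAF against WT basal 5 of the 10 genes were higher, against 4.73% of tested genes, and 0 lower, against 7.02% (11.8% in either direction). The higher genes were ID4 (3.34), BMP4 (2.54), ID1 (2.51), BMP7 (1.32) and ID2 (1.16). BMP2 stood at 0.92 and passed the rule at 1.04 after median-ratio scaling, while BAMBI had a ratio of -0.80 and ID3 of 0.02. The median of the 10 was 1.04, and that of all tested genes -0.13. Of all genes past the rule 40.2% were higher, and 54.3% after the scaling, which shifted the median of all genes by 0.13. With a pseudocount of 0.1 the count of 5 became 8, adding BMP2, MSX1 and MSX2. In the same comparison all 5 tested neuroectoderm markers were higher (729 against 12.3 TPM in sum) and all 7 tested erythroid markers lower (1.11 against 229), and their part in these ratios was not tested.

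In WT 5iLAF against WT basal 7 of the 10 were higher, against 10.7% of tested genes, and 2 lower, against 11.4% (22.1% in either direction). The 7 include MSX1 and MSX2, which passed the filter only through WT 5iLAF and knockout 2iLAF, so the filter favours their higher calls. BMP4 (4.36) and BMP2 (4.101) led, followed by MSX2 (2.63), BMP7 (2.58), MSX1 (2.25), BAMBI (1.47) and ID1 (1.27). ID3 (-1.86) and ID4 (-1.31) were lower, and ID2 stood at 0.41. With a pseudocount of 5 the ratio of ID4 was -0.44 and that of MSX1 0.82, neither past the rule. The median of the 10 genes was 1.86 and that of all tested genes -0.06. Mesoderm, endoderm and fibroblast marker sums were higher in the same library and erythroid ones lower, as given above, and their part in these ratios was not tested.

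In knockout 2iLAF against knockout basal, which shares no library with the comparison above, 7 were higher, against 15.9% of tested genes, and 1 lower, against 11.8% (27.7% in either direction). The higher genes were again the 3 ligands, BAMBI, ID1 and both MSX genes, with BMP4 at 4.26, BMP2 at 3.59, MSX2 at 2.86, BAMBI at 2.62, ID1 at 1.82, BMP7 at 1.80 and MSX1 at 1.76. ID3 was lower at -2.40, ID2 stood at 0.91 and ID4 at -0.55. With a pseudocount of 5 MSX1 stood at 0.65, not past the rule. Both MSX genes passed the filter only through knockout 2iLAF and WT 5iLAF, so it favours their higher calls here too. The median was 1.81 and that of all tested genes 0.02. Knockout 2iLAF also carried the granulocyte, fibroblast, mesoderm and endoderm transcripts given above, whose part in these ratios was not tested.

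**Figure D3:**
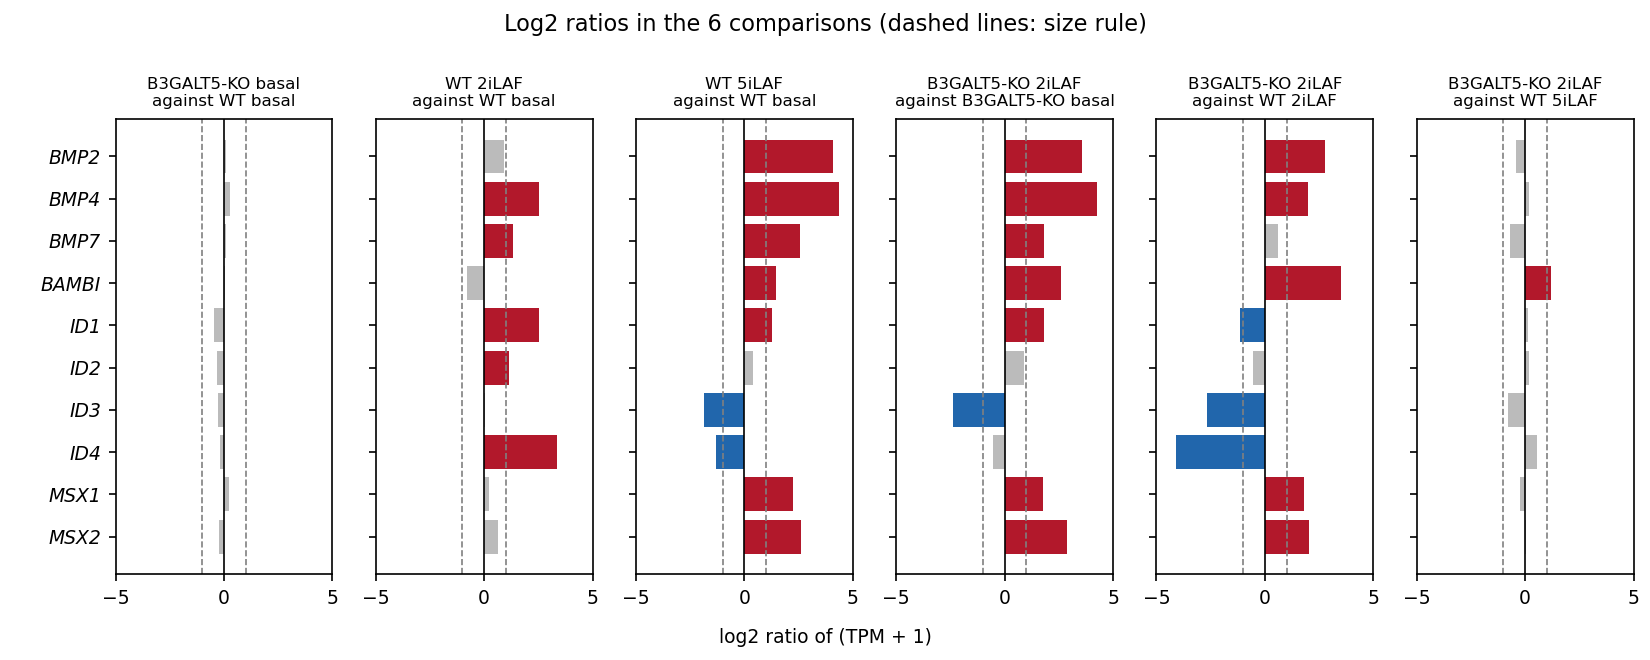
Log2 ratios of (TPM + 1) for the 10 genes in the 6 comparisons, 1 bar per gene; red and blue bars pass the size rule (dashed lines) as higher and lower, grey bars do not. The basal panel has no coloured bar, and ID3 and ID4 point left where the ligands point right in the WT 5iLAF panel.

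Within 2iLAF the knockout and WT libraries differed widely. In knockout 2iLAF against WT 2iLAF 5 genes were higher, against 16.6% of tested genes, and 3 lower, against 10.8% (27.4% in either direction). BAMBI was highest at 3.49, then BMP2 at 2.78, MSX2 at 2.01, BMP4 at 2.00 and MSX1 at 1.80. MSX1 was at 0.65 with a pseudocount of 5. Both MSX genes were below 1 TPM in WT 2iLAF and in the basal libraries, so the filter favours their higher calls. ID4 (-4.08), ID3 (-2.67) and ID1 (-1.13) were lower, and ID2 had a ratio of -0.56 and BMP7 of 0.59. The 10 genes had a median of 1.196 and all tested genes 0.10. Genotype and labelled pluripotency state both differ between these libraries and cannot be told apart. Mesoderm, endoderm, fibroblast, granulocyte, erythroid and neuroectoderm marker sums also differed between them, and their part in these ratios was not tested.

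Knockout 2iLAF against WT 5iLAF, the libraries labelled naive, gave 1 gene past the rule as higher, BAMBI at 1.22, against 4.9% of tested genes, and 0 lower, against 1.03% (5.93% in either direction). The other 9 lay between -0.79 (ID3) and 0.57 (ID4), with BMP4 at 0.18, MSX2 at 0.02, ID1 at 0.11 and BMP7 at -0.67. With a pseudocount of 0.1 ID4 also passed, at 1.40, on levels of 0.90 and 0.28 TPM. The median of the 10 was 0.07, and that of all tested genes 0.00. A count of 1 among 10 genes is not far from the share of 5.93%. Genotype and medium both differ between these libraries and cannot be told apart. Between these libraries 8 of 8 granulocyte markers (1122 against 1.04 TPM in sum), 5 of 7 tested erythroid markers (222 against 12.5) and 6 of 10 fibroblast markers were higher in knockout 2iLAF, and their part in these ratios was not tested.

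Upstream of these genes, the receptors differed among themselves. Of 11 BMP receptors and co-receptors 9 were tested. In WT 5iLAF against WT basal 3 were higher and 1 lower, beside 10.7% and 11.4% of all tested genes, with a median of 0.33 against -0.06. In knockout 2iLAF against knockout basal 2 were higher and 2 lower, beside 15.9% and 11.8%, with a median of 0.21 against 0.02. In knockout 2iLAF against WT 2iLAF 3 were higher and 2 lower, beside 16.6% and 10.8%, with a median of 0.49 against 0.10. WT 2iLAF against WT basal had 1 higher and 0 lower, beside 4.73% and 7.02%. Knockout basal against WT basal had 0 past the rule, beside 1.76%, and knockout 2iLAF against WT 5iLAF 0, beside 5.93%. BMPR1A, the main type I receptor, was near level, at 49.9 and 52.1 TPM in the basal WT and knockout libraries, 49.2 and 60.5 in their 2iLAF counterparts, and 59.2 in WT 5iLAF. BMPR2, the type II receptor for BMP, was at 5.01, 6.03 and 2.99 TPM in WT basal, knockout basal and WT 2iLAF, and at 19.8 and 18.0 in WT 5iLAF and knockout 2iLAF. ACVR1, another type I receptor, was at 17.2, 20.3 and 14.8 TPM in the former and 40.7 and 32.9 in the latter. RGMA, a BMP co-receptor, instead peaked in WT 2iLAF at 106 TPM, against between 26.7 and 33.8 in the other 4 libraries. None of the 3 tested SMAD transducers passed the rule in any of the 6 comparisons, where between 1.76% and 27.7% of all tested genes did. A count of 0 among 3 genes is not far from those shares. SMAD1 was between 15.5 and 21.3 TPM, SMAD5 between 16.9 and 25.1, and SMAD4 between 18.5 and 23.9, while SMAD9 stayed below 1 TPM.

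Many secreted antagonists and modulators of BMP were higher in the high-ligand libraries. Of 17, 14 were tested. In WT 5iLAF against WT basal 8 were higher and 1 lower, beside 10.7% and 11.4% of all tested genes, with a median of 1.66 against -0.06. In knockout 2iLAF against knockout basal 10 were higher and 1 lower, beside 15.9% and 11.8%, with a median of 3.05 against 0.02. In WT 2iLAF against WT basal 4 were higher and 1 lower, beside 4.73% and 7.02%, with a median of 0.39 against -0.13. FST, follistatin, which binds activin and some BMPs, was at 4.73, 45.0 and 179 TPM in WT cells in basal medium, 2iLAF and 5iLAF, and 3.13 and 181 in knockout cells in basal medium and 2iLAF. CER1, an inhibitor of nodal and BMP and also an endoderm marker, was at 3.41 TPM (WT) and 3.63 (knockout) in basal medium, 0.48 and 852 in 2iLAF, and 1832 in WT 5iLAF. BMP1, a protease that cleaves the BMP inhibitor chordin and is not itself a BMP ligand, was at 2.94 and 2.47 TPM in basal medium, 4.18 and 114 in 2iLAF, and 80.9 in WT 5iLAF. CHRDL1, a chordin-like antagonist, ran the other way, at between 13.4 and 17.6 TPM in the basal and WT 2iLAF libraries, 3.47 in WT 5iLAF and 1.57 in knockout 2iLAF. NOG, noggin, was at 1.74 TPM in WT 5iLAF and 7.36 in knockout 2iLAF, and at most 0.52 in the others.

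Intracellular inhibitors and other responsive genes did not share a single order of the libraries. SMAD6, an inhibitory SMAD raised by BMP, was at 2.33 TPM (WT) and 2.70 (knockout) in basal medium, 6.28 and 6.62 in 2iLAF, and 7.28 in WT 5iLAF. SMAD7, which also answers to activin and TGF-beta, was at 34.1 TPM (WT) and 14.5 (knockout) in basal medium, 10.96 and 30.3 in 2iLAF, and 25.4 in WT 5iLAF. SMAD7 (log2 ratio -1.18) and NBL1, a secreted antagonist at 5.01 and 1.23 TPM (-1.43), were lower in knockout basal than in WT basal. They were the 2 of the 49 tested pathway genes past the rule there, beside 1.76% of all tested genes (1.05% lower). A count of 2 among 49 genes is not far from that share. Of 10 other BMP-responsive genes 9 were tested. All but HEY1 were below 1 TPM in both basal libraries, so the filter favours higher calls against basal. WT 2iLAF against WT basal had 5 higher and 1 lower, beside 4.73% and 7.02% of all tested genes, with a median of 1.35 against -0.13. WT 5iLAF against WT basal had 5 and 0, beside 10.7% and 11.4%, with a median of 1.27 against -0.06. Knockout 2iLAF against knockout basal had 6 and 0, beside 15.9% and 11.8%, with a median of 1.16 against 0.02. HAND1, a factor of lateral mesoderm and amnion, was listed at 0 in both basal libraries and stood at 0.66 (WT) and 135 TPM (knockout) in 2iLAF and 43.5 in WT 5iLAF. CDX2, a factor of trophectoderm and posterior mesoderm, likewise stood at 7.99 and 7.48 TPM in WT 5iLAF and knockout 2iLAF and at most 0.44 elsewhere. TFAP2A, a factor of surface ectoderm, amnion and neural crest, was highest in WT 2iLAF at 17.3 TPM. It was at 3.12 TPM in WT 5iLAF and 2.09 in knockout 2iLAF, against 0.06 in WT basal and 0.10 in knockout basal. DLX5, a homeobox factor of the neural plate border, was at 7.83 TPM in WT 2iLAF, at most 0.26 in the other libraries and listed at 0 in both basal ones. GATA3, a factor of trophoblast and amnion, was at 6.70 TPM in WT 2iLAF, against 2.23 in WT 5iLAF and 1.39 in knockout 2iLAF. Its basal levels were 0.34 TPM (WT) and 0.22 (knockout). HAND1, CDX2 and the MSX genes were thus highest in WT 5iLAF or knockout 2iLAF. TFAP2A, DLX5 and GATA3 were highest in WT 2iLAF, like the ID genes, of which ID3 was near level with WT basal. In knockout 2iLAF against WT 2iLAF 4 of the 9 were higher and 4 lower, beside 16.6% and 10.8% of all tested genes, with a median of -0.63 against 0.10. HAND1, TFAP2A and GATA3 also belong to the list of amnion and trophoblast markers, and HAND1 to that of mesoderm.

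**Figure D4:**
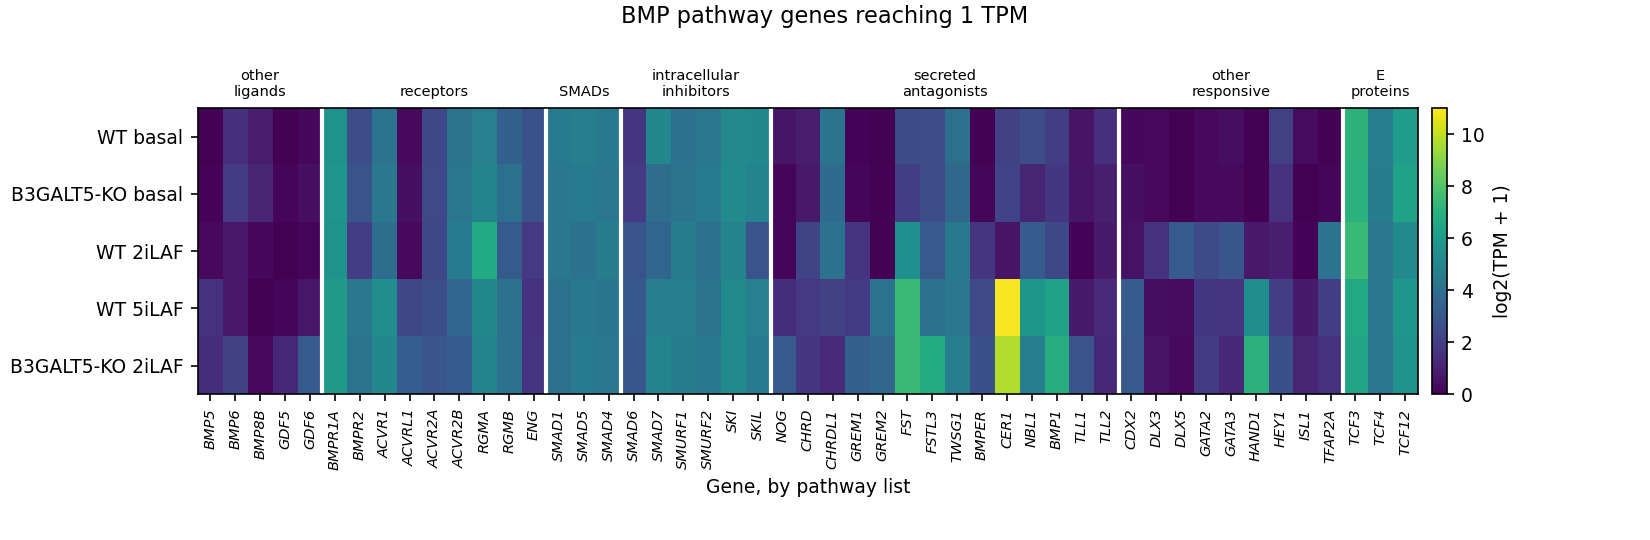
Level, as log2(TPM + 1) by colour, of the 49 of 62 BMP pathway genes that reached 1 TPM, in columns by list, for each library in rows. Tested SMAD columns vary little down the rows next to the secreted antagonists, where CER1 and FST are brightest in WT 5iLAF and knockout 2iLAF.

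Genes with the most similar profile were sought for the 4 members of widest range, as the smallest Euclidean distance of log2(TPM + 1), centred on each gene's mean, over the 5 libraries and among 10368 genes reaching 10 TPM. Nearest to BMP4 were PTH1R (distance 0.35), FLNC (0.39) and OLFML3 (0.43), the last at 43.0 TPM in WT basal and 1102 in knockout 2iLAF. BMP2 was nearest to COL7A1 (0.25), DUSP10 (0.28) and HEG1 (0.41), all with low WT 2iLAF values of between 2.06 and 5.92 TPM. For ID4 the nearest were TMEM54 (0.47), FEZF1-AS1 (0.56) and LUZP2 (0.69), each highest in WT 2iLAF at 124, 17.3 and 14.9 TPM. BAMBI was nearest to TIMP3 (0.29), PLOD2 (0.43) and DAB2 (0.43), which were also lowest in WT 2iLAF and highest in knockout 2iLAF. With 5 libraries such likeness is a description.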

How the data were processed

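RNA of H9 cells was sequenced in 5 libraries, 1 per group, with groups taken from the sample titles. Per the submitters' processing notes, the tools were Trimmomatic 0.39, Bowtie2 2.3.4.1 and RSEM 1.2.28, with build hg19. Settings, strand handling and annotation were not stated. The deposited values, for 26506 symbols, are TPM and FPKM per the file headers. The table held no counts, so the depth is unknown and no interval or detection floor is given. Each library had from 13729 to 14156 genes reaching 1 TPM. The 18 empty columns were not used.

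TPM values were compared as log2 ratios with a pseudocount of 1 over the 15761 genes reaching 1 TPM in at least 1 library, in 6 comparisons. The size rule was a log2 ratio of 1 or more. Members, lists and rules were chosen with earlier results of these data known. The text gives all members and, of each pathway list, up to 4 genes per comparison with the largest ratio past the rule and at 10 TPM, plus up to 2 by level. SMAD1, SMAD6, NOG, CDX2, DLX5, GATA3, BMP5, BMP6, BMP15, GDF2, GDF5, GDF6 and the single cell type markers fell outside that rule and were chosen after their values were seen. Promoter windows came from the RefSeq table of GRCh38.p14, matched by symbol. Alternatives changed the pseudocount (0.1 or 5), the filter (none, or 5 TPM), the scaling (median-ratio) or the unit (FPKM). Software was pandas 2.3.3 and numpy 2.4.6 under Python 3.11.15, with matplotlib 3.10.9 for plots. The code of the size rule was run on simulated data, with changes larger than the rule in genes well above 1 TPM. That run cannot give the error of the rule for low genes or between cultures.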

Additional observations from a re-analysis of the deposited data

Results flagged for a closer look

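In all, 3 members took opposite signs between WT and knockout cells on going from basal medium to 2iLAF, with at least 1 of the ratios past the size rule. BAMBI had a log2 ratio of -0.80 in WT and 2.62 in the knockout, a difference of 3.42 (knockout minus WT). For ID4 the ratios were 3.34 and -0.55, a difference of -3.89. For ID3 they were 0.02 and -2.40, a difference of -2.42, so its WT ratio was close to 0. Each ratio rests on 1 library per group, and the differences were not tested. Mesoderm markers summed to 505 TPM in knockout 2iLAF and 6.77 in WT 2iLAF, neuroectoderm markers to 26.8 and 729, and granulocyte markers to 1122 and 1.90, and their part in these differences was not tested.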

How the results depend on the processing

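No paired analysis was possible because each group held 1 library, and for the same reason no replicate could be left out. Of 354 ratios of single members under the 6 alternatives, 0 changed direction after being past the size rule, 343 kept their call, 5 lost it and 6 gained it. A pseudocount of 0.1 changed the count of members past the rule from 0 to 1 in knockout basal against WT basal (MSX1, between 0.03 and 0.23 TPM), from 5 to 8 in WT 2iLAF against WT basal and from 1 to 2 in knockout 2iLAF against WT 5iLAF. Calls were lost for MSX1 and ID4 with a pseudocount of 5, and for ID4 in WT 5iLAF against WT basal with FPKM (-0.87). A filter of 5 TPM removed MSX1. The share of all tested genes past the rule, between 1.76% and 27.7% over the comparisons, lay between 5.38% and 35.0% with a pseudocount of 0.1, between 0.47% and 14.1% with 5, between 1.05% and 16.5% with no filter, between 1.47% and 26.6% with the filter of 5 TPM and between 1.11% and 23.8% with FPKM. FPKM shifted the median of all genes by -0.11 in knockout 2iLAF against WT 2iLAF. No level can be given a precision, since depth is unknown; this bears most on levels below 1 TPM, such as those of MSX1 in the basal and WT 2iLAF libraries and of ID4 in WT 5iLAF and knockout 2iLAF.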

Other observations

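None of the 11 other BMP-family ligands listed exceeded 7.56 TPM, and 5 reached 1 TPM in at least 1 library. GDF6, a ligand of joint and eye development, was at 7.56 TPM in knockout 2iLAF and at most 0.58 in the other libraries. BMP6 was at 1.92 and 2.90 TPM in the basal WT and knockout libraries, 0.69 and 3.56 in their 2iLAF counterparts, and 0.70 in WT 5iLAF. Both knockout libraries stood above the WT libraries. The log2 ratio of knockout basal to WT basal was 0.42, not past the rule, and that of knockout 2iLAF to WT 2iLAF was 1.43. In both basal libraries BMP6 was above BMP2, which was at 1.07 and 1.24 TPM. BMP5 was at 1.96 TPM in WT 5iLAF and 1.73 in knockout 2iLAF and at most 0.22 elsewhere. GDF5 reached 1.33 TPM in knockout 2iLAF. BMP15 and GDF2, known from the ovary and from liver and blood vessels, were listed at 0 in all 5 libraries. In knockout 2iLAF against WT 5iLAF GDF6 (2.44), BMP6 (1.42) and GDF5 (1.08) had log2 ratios past the rule, while BMP5 and BMP8B did not pass it. GDF5 and GDF6 reached 1 TPM in knockout 2iLAF only, so they were tested because of that library. For this reason their number is not set against the share of all tested genes.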
